A study of Homo sapiens with 18 samples.

Results

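The response of SKMEL5 to A-485 was described from the 6 arrays of this line, chosen by the cell line in their labels, out of 18 arrays in the series. SKMEL5 is an established human melanoma cell line that carries mutant BRAF. Its 6 arrays were 4 of cells given the solvent DMSO, 2 collected after 6 h and 2 after 24 h, and 2 of cells given A-485, 1 at each time. The labels give the A-485 dose as 3 mM, a unit that was not checked here. The other 12 arrays hold WM2664 and A375, melanoma lines that were handled in the same way, and they entered the fit so that the spread of each gene could be estimated from all DMSO pairs. All cells were cultured in RPMI medium with fetal bovine serum, no genotype was changed, and total RNA of whole cultures was labelled with biotin for Affymetrix HG-U133 Plus 2.0 arrays. The design sets lines called sensitive beside a line called resistant, without saying in the text used here which is which.

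A-485 occupies the acetyl-CoA site of p300 (EP300) and CBP (CREBBP), a pair of closely related acetyltransferases that mark enhancers and promoters by acetylating histone H3 and that are recruited by many transcription factors. In cells of the melanocyte lineage, p300 and CBP act with MITF, the factor that directs pigment genes, and with SOX10, which activates MITF. Melanoma cells also depend on RAF and MAP kinase signalling, which drives cyclin D and entry into the cell cycle.

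Each value below is a scaled intensity, the authors' array intensity after all arrays were brought to the same distribution, with a floor of 32 under which probe sets were not told apart. A difference is log2 of the A-485 array minus the mean log2 of the DMSO arrays of that time, ± SE from limma, and genes with an adjusted p under 0.05 are those called. Every A-485 group was 1 array, so its error was borrowed from the spread of the DMSO pairs. The labels do not say whether the DMSO replicates were separate cultures, and p-values then measure only the spread between these arrays, which may be technical. The number of arrays limits the precision, and the median SE over genes was 0.13 at each time.

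The SKMEL5 arrays were alike in the share of genes above the floor and differed in brightness. The 75th percentile of the deposited intensities was 189 with A-485 at 6 h, against 148 and 147 with DMSO. At 24 h it was 154 with A-485, against 186 and 132 with DMSO. The medians of their deposited intensities ran from 20.9 to 28.2 and their 75th percentiles from 132 to 189, and between 80.2% and 81.8% of the genes tested lay above the floor. The DMSO pairs correlated across genes at 0.994 at 6 h and 0.990 at 24 h, with a median absolute difference of 0.069 and 0.102 (log2). All 9 melanocyte markers that could be read, among them MITF, SOX10, PMEL, MLANA and TYR, were above 100 on every array, and their summed intensity ran from 38354 to 50842, lowest with A-485 at 6 h. Of the markers of other cells, 6 of 12 for fibroblasts, 5 of 10 for keratinocytes and epithelium, 6 of 10 for leukocytes and 6 of 8 for endothelium were at the floor on all 6 arrays. Their summed intensities were 4310 to 5697, 2553 to 3107, 340 to 455 and 296 to 417, of which LUM made up most in the fibroblast list and KRT10 in the epithelial list. Each array was also read for 19 to 32 genes that were bright in another line and had a median under the floor in its own. The median ratio of these genes to their level in the bright line was over 1% on 3 DMSO arrays of the other lines, at most 2.53%. On the SKMEL5 arrays it was at most 0.45%. Whether such ratios came from transcripts of another line or from background signal was not tested.

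A-485 had changed the level of 3085 of 14130 tested genes after 6 h, which is 21.8%, with 1767 higher (12.5%) and 1318 lower (9.33%). After 24 h it had changed 4981 genes, which is 35.3%, with 2844 higher (20.1%) and 2137 lower (15.1%). The larger differences were mostly decreases, with 135 genes at least 2-fold higher (0.955%) and 376 at least 2-fold lower (2.66%) at 6 h, and 381 (2.7%) and 723 (5.12%) at 24 h. The A-485 array lay above both DMSO arrays of its time for 41.2% of tested genes at 6 h and 41.1% at 24 h. It lay below both for 29.2% and 30.8%, so such a position was common and is not in itself a sign of a change. Because RNA came from whole cultures, less RNA of a gene per cell and fewer cells that express it cannot be told apart. With the intensities as deposited, without scaling, the median of 9786 bright genes shifted by 0.38 (log2) at 6 h and 0.01 at 24 h, and the share of higher genes among those called was 78.3% at 6 h and 30.5% at 24 h, against 57.3% and 57.1% here. All changes are therefore relative to the bulk of genes on the same array.

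The 2 times shared no array, although they shared the spread estimate of each gene. In the same direction, 1910 genes were called at both times, 1034 higher (7.32%) and 876 lower (6.2%), which is 61.9% of the genes called at 6 h and 38.3% of those called at 24 h. A gene was placed in an early or late group only when it was called at 1 time, not at the other, and when the difference between the responses, 24 h minus 6 h, was itself called. This difference was called for 1955 genes, which is 13.8%, with 931 higher (6.59%) and 1024 lower (7.25%). By that rule 320 genes were called at 6 h only (185 higher, 1.31%, and 135 lower, 0.955%), 1047 at 24 h only (548 higher, 3.88%, and 499 lower, 3.53%) and 212 in opposite directions. Of the last group, 137 were higher at 6 h and lower at 24 h (0.97%), and 75 the reverse (0.531%). Some genes had the A-485 array or both DMSO arrays at the floor at 1 time or more. At 6 h only these were 50 of the 185 higher and 12 of the 135 lower genes. At 24 h only they were 130 of the 548 higher and 47 of the 499 lower genes. A response at the floor could not be read in full, so that a call at 1 time only may rest on the floor. All other called genes were called at 1 time without a called difference between the times, and these were assigned to neither.

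**Figure D1:**
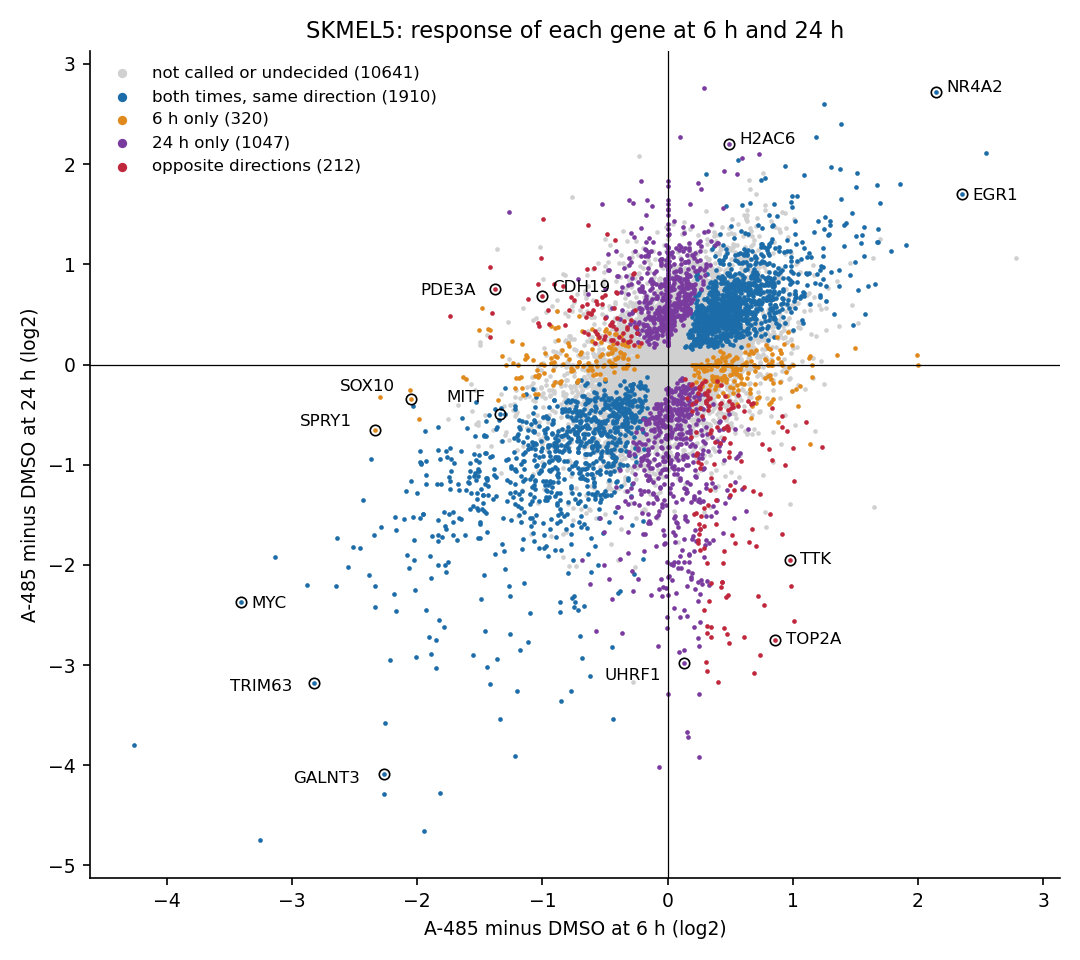
Difference of A-485 from DMSO (log2) in SKMEL5 at 6 h on the horizontal axis and at 24 h on the vertical axis, 1 point per tested gene, coloured by the group it was placed in. Genes called at both times (1910) lie along the diagonal, genes called at 24 h only (1047) along the vertical axis, and TOP2A and TTK stand among the 212 genes that were higher at 6 h and lower at 24 h or the reverse.

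The DMSO arrays also differed between the times. Between 6 h and 24 h of DMSO 1186 genes differed, which is 8.39%, with 604 higher (4.27%) and 582 lower (4.12%) at 24 h. Without 1 DMSO array this count was 567 (6 h replicate 1), 714 (6 h replicate 2), 1615 (24 h replicate 1) or 739 (24 h replicate 2). Such genes made up 36.5% of those lower at 24 h only and 44.5% of those higher at 6 h and lower at 24 h. For the groups where this bears on a result, the DMSO values are given beside it, and their part in the result was not tested.

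The counts of called genes in the gene lists given below stand beside the shares over all tested genes. These were 12.5% higher and 9.33% lower at 6 h, and 20.1% higher and 15.1% lower at 24 h. The list counts depend on the settings. Of 46 such counts of at least 5 genes, 40 were lower by over 1.5 times with the intensities as deposited, 26 with the 6 SKMEL5 arrays alone and 2 with arrays scaled to a common 75th percentile, and none was higher by that much in these settings.

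Factors of the melanocyte lineage fell within 6 h and part of them came back by 24 h. Of 21 tested lineage and neural crest factors, 15 were lower at 6 h and none was higher, with a median difference of -0.88 against 0.00 over all genes. At 24 h 8 were lower and 3 higher, with a median of -0.17, and for 11 of the 21 the response at 24 h was called higher than at 6 h. SOX10, which keeps the neural crest and melanocyte program active, read 3106 and 3300.0 on the DMSO arrays and 774 on the A-485 array at 6 h. At 24 h SOX10 read 3363 and 3471 with DMSO and 2689.6 with A-485. The A-485 array lay below both DMSO arrays at each time, but the difference went from -2.05 ± 0.13 (adjusted p 6.93e-05) to -0.35 ± 0.13 (adjusted p 0.0784), and the change between the times was called, at 1.70 ± 0.18 (adjusted p 0.00103).

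MITF read 6851 and 6784 with DMSO and 2701 with A-485 at 6 h, then 6600.2 and 6712 with DMSO and 4714 with A-485 at 24 h. It was lower at both times, with differences of -1.34 ± 0.08 and -0.50 ± 0.08 (adjusted p 5.58e-05 and 0.00264), and the gap had narrowed by 0.84 ± 0.11 at 24 h (adjusted p 0.00315). A dimmer probe set of MITF, near 98, gave -2.26 and -1.86, so the size of the recovery depends on the probe set.

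Other lineage factors that fell at 6 h lay nearer to DMSO at 24 h. IRF4, a transcription factor that MITF activates in melanocytes, read 643 and 694 with DMSO and 76.0 with A-485 at 6 h, and 657 and 800.2 and then 191 at 24 h, which gave -3.14 ± 0.16 and -1.92 ± 0.16. TFAP2A, a neural crest factor that shares targets with MITF, went from -1.77 ± 0.06 to -0.86 ± 0.06. ERBB3, a receptor kinase that SOX10 activates, went from -2.37 ± 0.10 to -0.94 ± 0.10, although a dim probe set of it stood at -1.31 and -0.19. For IRF4, TFAP2A and ERBB3 the response at 24 h was called smaller than at 6 h (adjusted p 0.0129, 0.000371 and 0.000737). SNAI2, a repressor of epithelial genes, stood at -2.51 ± 0.18 and -1.82 ± 0.18, and its difference between the times was not called (adjusted p 0.14).

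Other neural crest genes passed above their DMSO level by 24 h. CDH19, a cadherin of neural crest and Schwann cell precursors, read 471 and 498 with DMSO and 241 with A-485 at 6 h, but 659 and 667 with DMSO and 1062 with A-485 at 24 h. Its A-485 array lay below both DMSO arrays at 6 h, as for 29.2% of tested genes, and above both at 24 h, as for 41.1%. The sign turned from -1.004 ± 0.17 to 0.68 ± 0.17. ETV1, an ETS factor, turned likewise from -0.52 ± 0.10 to 0.67 ± 0.10, with 0.25 to 1.44 at 24 h over its other probe sets, and the homeobox gene ALX1 was called at 24 h only, at 0.75 ± 0.08. The 24 h call of CDH19 ended without either DMSO array of that time, at 0.67 without replicate 1 and 0.69 without replicate 2.

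**Figure D2:**
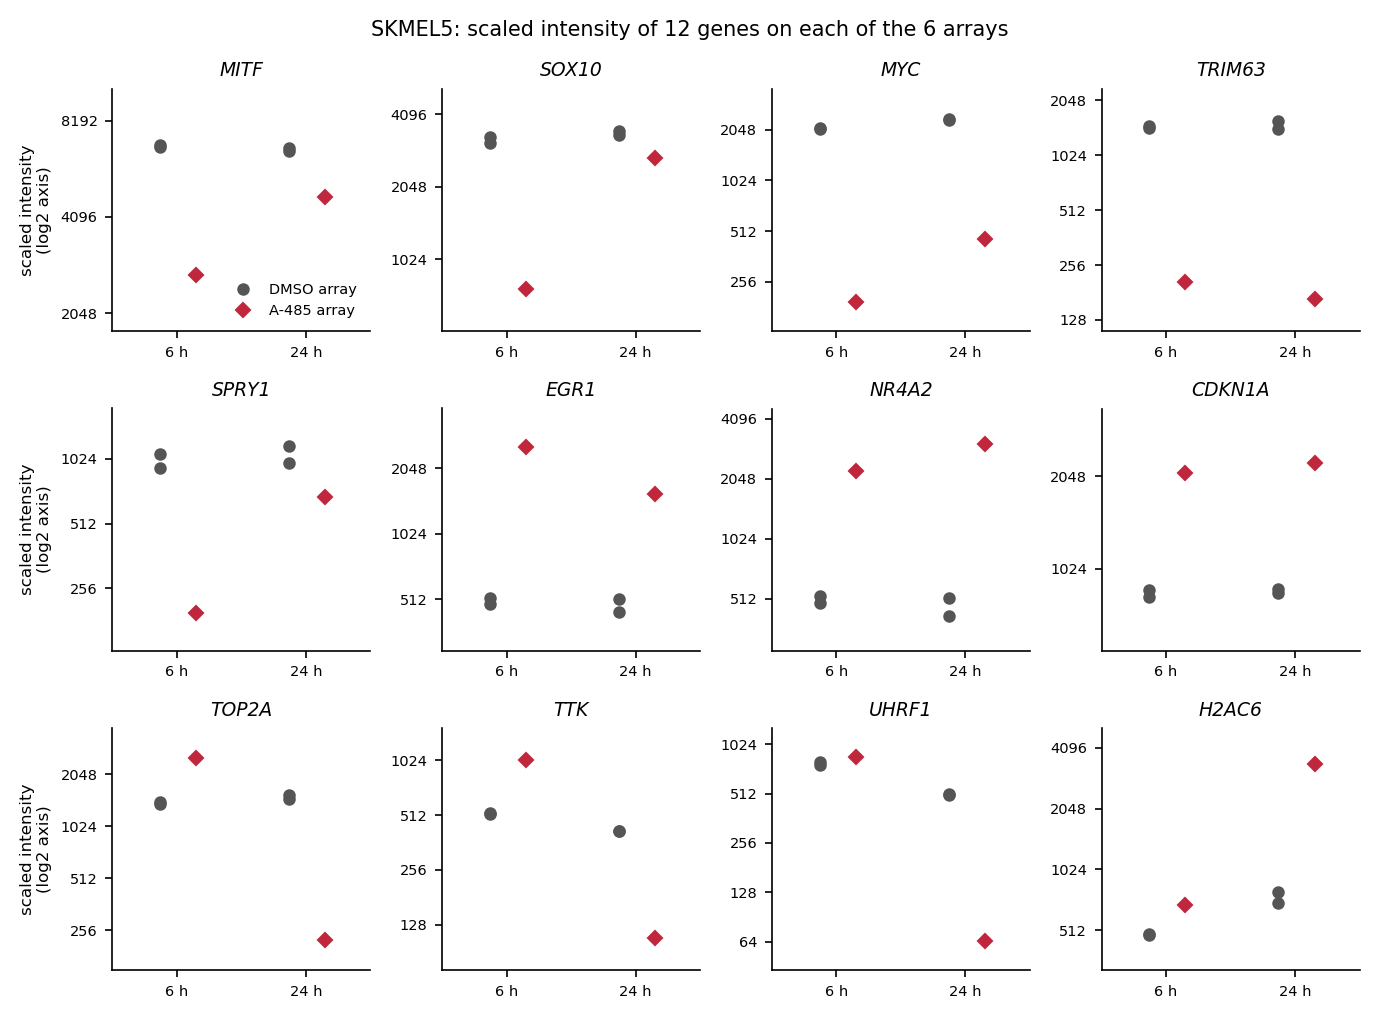
Scaled intensity (log2 axis) of 12 genes on each of the 6 SKMEL5 arrays, with grey points for the 2 DMSO arrays and a red diamond for the A-485 array of each time. MITF and SOX10 fell at 6 h and came nearer to DMSO at 24 h, TRIM63 and MYC stayed low, EGR1, NR4A2 and CDKN1A stayed high, and TOP2A and TTK were above DMSO at 6 h and below it at 24 h.

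Genes downstream of MITF were lower at both times, and for 10 of 36 the fall deepened between the times while for 2 it lessened. Of these 36 known MITF targets outside pigment synthesis, 21 were lower at 6 h and 28 at 24 h, none was higher, and the medians were -0.86 and -0.95. TRIM63, a ubiquitin ligase of muscle that melanoma cells express under MITF, read 1479 and 1445 with DMSO and 206 with A-485 at 6 h, and 1578 and 1434 with DMSO and 167 with A-485 at 24 h. The differences were -2.83 ± 0.08 and -3.18 ± 0.08 (adjusted p 3.3e-06 and 3.58e-07). TRPM1, a channel gene whose intron holds a microRNA of melanocytes, went from -1.94 ± 0.11 to -4.66 ± 0.11, with 44.7 on the 24 h A-485 array, close to the floor. A dim probe set of TRPM1 gave -1.69 and -1.58. GALNT3, an enzyme that starts O-linked sugar chains, went from -2.26 ± 0.07 to -4.09 ± 0.07. For TRPM1 and GALNT3 the deepening was called (adjusted p 5.01e-05 and 4.56e-05). PPARGC1A, the coactivator of mitochondrial genes, came nearer to DMSO, from -2.43 ± 0.12 to -1.35 ± 0.12 (adjusted p of the change 0.00487).

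The TRIM63 promoter is shown because it holds the M-box, the letters TCATGTG or TCACGTG on either strand, to which MITF can bind. It is the 250 bases before the RefSeq start of the gene on the minus strand of GRCh38.p14, chr1:26067631-26067880, written 5′ to 3′ along the gene with the M-box in capitals.
TRIM63: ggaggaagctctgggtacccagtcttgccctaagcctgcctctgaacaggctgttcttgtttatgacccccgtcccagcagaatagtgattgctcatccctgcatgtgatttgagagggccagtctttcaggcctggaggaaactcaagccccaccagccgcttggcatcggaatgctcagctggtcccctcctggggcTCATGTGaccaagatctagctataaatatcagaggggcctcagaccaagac
Of the RefSeq promoters of this length, an M-box was found in 7 of 17 matched pigment genes (41.2%), in 6 of 25 matched MITF targets (24%) and in 6.59% of 11373 matched tested genes. Over all 27305 promoters in the table the share was 5.87%. An M-box was also found in 11 of 30 matched lysosome and V-ATPase genes (36.7%), a list with median differences of 0.01 and 0.00. Of its 43 tested genes, 4 were lower and none higher at 6 h, beside 9.33% and 12.5% of all genes. At 24 h 9 were lower and 5 higher, beside 15.1% and 20.1%. Among matched genes called lower at both times the share was 7.68%. The same windows of TRPM1 and GALNT3 held no M-box.

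Pigment genes that were called were lower, by smaller medians. Of 22 tested, 11 were lower at 6 h and 11 at 24 h, none was higher, and the medians were -0.38 and -0.42. Without either DMSO array of 6 h the first count was 7. With the intensities as deposited the counts were 1 and 7, with medians of -0.04 and -0.53. HPS4, a subunit of a complex that builds melanosomes, read 718 and 697 with DMSO and 185 with A-485 at 6 h, then 958 and 1002 with DMSO and 179 with A-485 at 24 h, or -1.93 ± 0.10 and -2.45 ± 0.10. SLC45A2, a melanosome transporter, went from -0.58 ± 0.12 to -1.81 ± 0.12, and GPR143, a melanosome receptor, was at -0.09 ± 0.13 at 6 h (adjusted p 0.779) and fell to -1.34 ± 0.13 at 24 h. MLPH, which links melanosomes to myosin, was lower at both times, at -0.93 ± 0.06 and -1.27 ± 0.06.

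MYC, a transcription factor that drives cell growth as a partner of MAX, was lower at both times. It read 2089 and 2058 with DMSO and 196 with A-485 at 6 h, and 2343 and 2385 with DMSO and 458 with A-485 at 24 h. The differences were -3.40 ± 0.08 and -2.37 ± 0.08 (adjusted p 2.28e-06 and 1.6e-06), and part of the loss was regained between the times (adjusted p 0.00132). MXD1, a MAX partner that opposes MYC at the same sites, moved the other way, from 89.0 and 73.5 with DMSO to 472 with A-485 at 6 h and from 73.8 and 71.3 to 314 at 24 h, which was 2.55 ± 0.15 and 2.11 ± 0.15. Of the 10 tested MYC and MAX network genes, 4 were lower and 1 higher at 6 h, and 3 lower and 1 higher at 24 h. MNT, MLXIP and MXI1 were the other lower genes at 6 h, at -0.99, -0.76 and -0.66. MNT lost its call without DMSO 6 h replicate 2, at -0.81.

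Genes of ribosome assembly, many of which MYC activates, were lower, more of them at 24 h than at 6 h. Of 27 tested, 10 were lower at 6 h and 20 at 24 h, none was higher, and the medians were -0.32 and -0.64. For 9 the fall deepened between the times and for 1 it lessened. With the intensities as deposited the 6 h median was 0.05, and 0 genes were lower at 6 h and 7 at 24 h. With the 6 SKMEL5 arrays alone these counts were 3 and 12, and with arrays scaled to a common 75th percentile 10 and 20. RRS1, an assembly factor of the large subunit, read 1179 and 1194 with DMSO and 498 with A-485 at 6 h and 1234 and 1037 with DMSO and 552 with A-485 at 24 h, or -1.25 ± 0.11 and -1.04 ± 0.11. NOP16 stood at -0.88 ± 0.06 and -1.10 ± 0.06, and WDR43 at -0.77 ± 0.13 and -1.21 ± 0.13.

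Immediate early genes split in both directions. Of 25 tested, 13 were higher and 5 lower at 6 h, and 11 were higher and 6 lower at 24 h. Without 6 h DMSO replicate 1 the 6 h count was 8 higher. Without the 3 DMSO arrays of the other lines that read over 1% in genes bright in another line, 6 and 7 were higher. EGR1, a zinc finger factor induced by serum and MAP kinase signals, read 518 and 489.8 with DMSO and 2568 with A-485 at 6 h, and 516 and 447 with DMSO and 1568 with A-485 at 24 h. The arrays stood far apart at both times, at 2.35 ± 0.13 and 1.71 ± 0.13 (adjusted p 3.59e-05 and 6.26e-05). NR4A2, an orphan nuclear receptor, rose from 525 and 489 to 2238 at 6 h and from 421 and 515 to 3078 at 24 h, or 2.14 ± 0.13 and 2.73 ± 0.13. JUNB and JUN, subunits of AP-1, were higher at both times, by 1.41 ± 0.27 and 1.39 ± 0.27 and by 1.04 ± 0.18 and 1.68 ± 0.18. CCN2, a matrix protein of the YAP pathway, rose further with time, from 1.25 ± 0.23 to 2.60 ± 0.23. The call of that further rise ended without any 1 of the DMSO arrays, at 1.25 to 1.46.

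Within the same class KLF6, a zinc finger factor, and NR4A3, a relative of NR4A2, were lower at both times, at -1.46 ± 0.08 and -1.19 ± 0.08 and at -0.83 ± 0.04 and -1.51 ± 0.04. IER3 was lower at 6 h only, at -0.84 ± 0.10 against 0.00 ± 0.10 at 24 h. ATF3, a stress-induced factor, stood at -0.45 ± 0.26 at 6 h (adjusted p 0.313) and fell to -1.79 ± 0.26 at 24 h, with 239 and 238 on the DMSO arrays and 69.2 on the A-485 array. A second, dim probe set of ATF3 gave -0.44 at 24 h.

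The EGR1 promoter is shown for its CArG boxes, the sites at which serum response factor binds. The stretch is chr5:138465229-138465478 on the plus strand of GRCh38.p14, the 250 bases before the RefSeq start, with the boxes in capitals 105 and 83 bases before the start.
EGR1: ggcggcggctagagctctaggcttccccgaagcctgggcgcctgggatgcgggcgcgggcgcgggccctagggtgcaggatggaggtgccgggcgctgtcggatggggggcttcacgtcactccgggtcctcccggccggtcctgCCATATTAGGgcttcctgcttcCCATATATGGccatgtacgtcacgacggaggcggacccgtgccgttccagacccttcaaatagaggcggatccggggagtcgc
A CArG box on either strand was found in 2 of 19 matched immediate early genes (10.5%) and in 1.02% of the matched tested genes.

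Feedback and target genes of the MAP kinase pathway were mostly lower where called. Of 21 tested, 10 were lower and 1 higher at 6 h, and 8 lower and 1 higher at 24 h, and for 6 the response at 24 h was called above that at 6 h. SPRY1, an inhibitor of receptor kinase signalling, whose second, dimmer probe set gave -1.20 and -0.43, read 930.1 and 1077 with DMSO and 198 with A-485 at 6 h, and 1165 and 977 with DMSO and 679 with A-485 at 24 h. It was called at 6 h, at -2.34 ± 0.24, and not at 24 h, at -0.65 ± 0.24 (adjusted p 0.0735), and the change between the times was called (adjusted p 0.0169). PLK2, EPHA4 and CCND1 were lower at both times, with CCND1, the cyclin of G1, at -1.01 ± 0.12 and -0.87 ± 0.12. DUSP4, a MAP kinase phosphatase, was at -1.13 ± 0.07 and -0.30 ± 0.07, and at 24 h another probe set gave 0.07. The gene that was higher at 6 h was EGFR, at 0.79, a call that ended, at the same value, without either 24 h DMSO array.

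Genes of cell division fell late and almost without exception. Of 41 tested genes of DNA replication, 40 were lower at 24 h and none was higher, with a median of -1.78, while at 6 h 6 were higher, 1 was lower and the median was 0.11. Of 52 tested genes of mitosis, 50 were lower at 24 h and none was higher, with a median of -1.84. At 6 h, 28 of the 52 were higher and none was lower, with a median of 0.31, so that 27 of them were called in opposite directions at the 2 times. The background of lower calls at 24 h was 15.1% and that of higher calls at 6 h was 12.5%, and the medians over all genes were 0.00.

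The rise at 6 h was small and rested on both DMSO arrays of that time. The count of 28 mitosis genes became 16 without replicate 1 and 13 without replicate 2, 19 with arrays scaled to a common 75th percentile, 5 with the SKMEL5 arrays fitted alone and 4 with the intensities as deposited. The count of 50 lower at 24 h was 51 without 24 h replicate 1, 50 without replicate 2 and 45 as deposited. In DMSO these genes were also lower at 24 h than at 6 h, by a median of -0.46 for replication and -0.33 for mitosis, with 26 and 24 genes called, and the part of this in the response was not tested.

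TOP2A, the topoisomerase that untangles chromosomes before mitosis, read 1385 and 1408 with DMSO and 2534 with A-485 at 6 h. At 24 h it read 1477 and 1546 with DMSO and 225 with A-485. The A-485 array was thus the highest of the 6 at 6 h and the lowest at 24 h, with differences of 0.86 ± 0.07 and -2.75 ± 0.07 (adjusted p 0.00017 and 3.45e-07), and another probe set gave 0.31 and -2.49. TTK, a kinase of the spindle checkpoint, went from 0.97 ± 0.11 to -1.95 ± 0.11, from 529 and 517 with DMSO against 1028 to 417 and 418 against 108. CDK1, the kinase that starts mitosis, read 1719 and 1717 with DMSO and 2273 with A-485 at 6 h, then 1259 and 1323 with DMSO and 143 with A-485, or 0.40 ± 0.05 and -3.17 ± 0.05. RRM2, the ribonucleotide reductase subunit that supplies deoxynucleotides in S phase, read 4025 and 4040.5 with DMSO and 6513 with A-485 at 6 h and 2973 and 2789.6 with DMSO and 341 with A-485 at 24 h, or 0.69 ± 0.05 and -3.08 ± 0.05. UBE2C, which ubiquitinates mitotic cyclins, went from 0.74 ± 0.16 to -2.90 ± 0.16, and KIF18A, a kinesin of chromosome alignment, from 0.73 ± 0.15 to -2.31 ± 0.15. The 6 h call of UBE2C ended without either 6 h DMSO array, at 0.76 and 0.72, and that of KIF18A without replicate 2, at 0.65.

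Other genes of the cycle were not called at 6 h and were lower at 24 h. UHRF1, which carries DNA methylation through replication, read 804 and 764 with DMSO and 858 with A-485 at 6 h, and 511 and 505 with DMSO and 64.2 with A-485 at 24 h. Its difference was 0.13 ± 0.09 (adjusted p 0.381) and then -2.98 ± 0.09 (adjusted p 7.61e-07). DMSO alone moved UHRF1 by -0.63 ± 0.07 between the times. FEN1, the nuclease of Okazaki fragments, went from -0.07 ± 0.06 to -2.81 ± 0.06, and BUB1B, a checkpoint protein, from -0.01 ± 0.07 to -2.52 ± 0.07. CDC6, which loads the replicative helicase, and AURKB, a mitotic kinase, were at -3.72 and -4.02 at 24 h, with 32.8 and 47.6 on the A-485 array, close to the floor, so these sizes are not exact. CDC45, a part of that helicase, was at the floor with A-485 at 24 h and its difference was -3.67 or lower.

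Genes of DNA repair and G1 were also mostly lower at 24 h. Of 19 tested genes of recombination and the Fanconi pathway, 16 were lower and 1 higher at 24 h, with 2 higher and 2 lower at 6 h. Of 20 G1 cyclins, their kinases and E2F genes, 12 were lower and 2 higher at 24 h and 4 lower and 2 higher at 6 h. CCNE2, a cyclin of S phase entry, rose from 623 and 667 to 986 at 6 h and fell from 437 and 445 to 67.1 at 24 h, or 0.61 ± 0.10 and -2.72 ± 0.10. CDK2, its kinase, was lower at both times, from -0.85 ± 0.07 to -1.85 ± 0.07, and the deepening was called (adjusted p 0.000613).

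Promoters of 3 cell cycle genes are shown for the elements found in them. The CHR, TTTGAA on either strand, and the CCAAT box, CCAAT on either strand, are elements known from genes of mitosis, and both are in capitals. The stretches are the 250 bases before the RefSeq start on GRCh38.p14, chr17:40417897-40418146 on the minus strand, chr10:60778081-60778330 on the plus strand and chr2:10122489-10122738 on the plus strand.
TOP2A: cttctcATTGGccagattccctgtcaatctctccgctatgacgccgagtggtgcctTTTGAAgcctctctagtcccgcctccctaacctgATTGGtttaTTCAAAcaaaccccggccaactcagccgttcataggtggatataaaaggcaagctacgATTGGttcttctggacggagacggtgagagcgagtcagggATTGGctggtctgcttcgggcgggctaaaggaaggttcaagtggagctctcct
CDK1: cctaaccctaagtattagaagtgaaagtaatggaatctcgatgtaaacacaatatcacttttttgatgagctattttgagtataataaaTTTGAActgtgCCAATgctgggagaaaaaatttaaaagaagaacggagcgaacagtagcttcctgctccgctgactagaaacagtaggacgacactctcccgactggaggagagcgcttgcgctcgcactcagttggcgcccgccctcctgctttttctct
RRM2: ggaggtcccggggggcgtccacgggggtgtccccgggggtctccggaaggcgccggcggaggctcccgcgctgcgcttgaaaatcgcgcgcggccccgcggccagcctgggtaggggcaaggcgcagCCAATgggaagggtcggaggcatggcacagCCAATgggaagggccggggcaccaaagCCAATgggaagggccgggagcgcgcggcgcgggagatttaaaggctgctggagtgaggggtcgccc
TOP2A holds 2 CHRs and 4 CCAAT boxes in this window, CDK1 holds 1 of each, and RRM2 holds 3 CCAAT boxes. A CHR was found in 23 of 44 matched mitosis genes (52.3%), in 35 of 111 matched genes that were higher at 6 h and lower at 24 h (31.5%), in 10.6% of those lower at 24 h only and in 8.97% of all matched tested genes (13.6% of all promoters). A CCAAT box was found in 32 of 44 mitosis genes (72.7%), in 20 of 35 replication genes (57.1%) and in 35% of matched tested genes (33% of all promoters). Other lists also held it. It was found in 13 of 15 histone genes (86.7%), 16 of 18 endoplasmic reticulum stress genes (88.9%) and 17 of 23 cholesterol and fatty acid synthesis genes (73.9%). These lists had 15, 21 and 25 tested genes. At 24 h 7, 6 and 3 of them were called higher and 3, 1 and 5 lower, beside 20.1% and 15.1% of all genes. The mitosis genes and the opposite group overlap in membership, and a match is a description of the letters only.

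**Figure D3:**
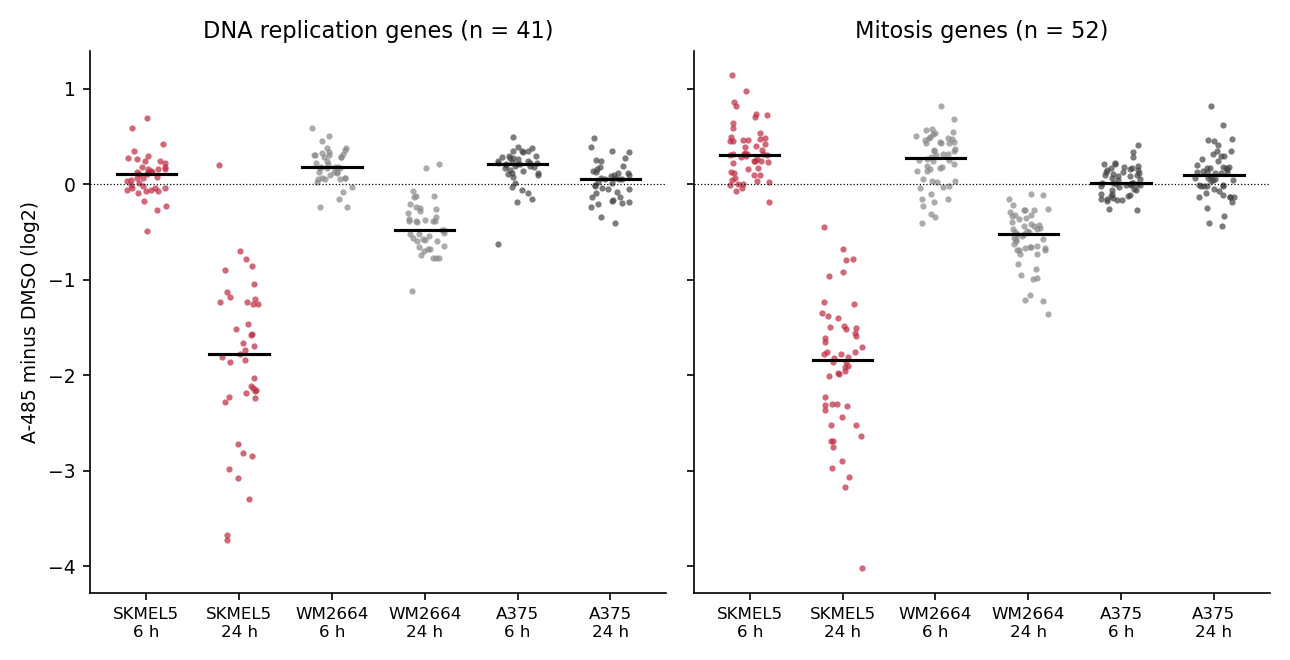
Difference of A-485 from DMSO (log2) of 41 DNA replication genes (left) and 52 mitosis genes (right) in each line and time, 1 point per gene and a black bar at the median. SKMEL5 at 24 h has medians of -1.78 and -1.84, against -0.47 and -0.52 in WM2664 and 0.05 and 0.10 in A375.

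The late fall of the cell cycle genes was larger in SKMEL5 than in the mean of the other lines. The response of SKMEL5 minus the mean response of WM2664 and A375 was called for 984 genes at 6 h, which is 6.96%, with 511 above (3.62%) and 473 below (3.35%), and 2720 at 24 h, which is 19.2%, with 1424 above and 1296 below (10.1% and 9.17%). All tested genes entered these counts, also genes at the floor in WM2664 or A375, where no response could be read. The counts at 6 h and 24 h were 440 and 1811 with a floor of 16, and 1042 and 2490 with a floor of 64. With at least 2 SKMEL5 arrays above the floor they were 605 and 2173. At 24 h, 38 of 41 replication genes and 50 of 52 mitosis genes were called lower in SKMEL5 than in the mean of the other lines. WM2664 also fell at 24 h, with medians of -0.47 and -0.52, while A375 stood at 0.05 and 0.10. SKMEL5 was not tested against WM2664 alone. The 6 genes named by size on the lower side at 24 h were RRM2 (-3.28 ± 0.07), CCNE2 (-3.13 ± 0.12), CDK1 (-2.89 ± 0.07), RAD51AP1 (-2.71 ± 0.13), NCAPG (-2.64 ± 0.06) and UHRF1 (-2.62 ± 0.11). RRM2 stood at -3.08 in SKMEL5, 0.21 in WM2664 and 0.20 in A375, and CDK1 at -3.17, -0.69 and 0.13.

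On the higher side the genes differed in how they came there. ADGRG1, an adhesion receptor, had a smaller difference in SKMEL5, at -0.96 against -4.43 and -2.88 in WM2664 and A375 at 24 h. GPAT3, an enzyme of triglyceride synthesis, was at -0.21 (adjusted p 0.213) against -1.99 and -1.96. ARRDC3, an arrestin-like adaptor, rose in SKMEL5, from 168 and 153 with DMSO to 572 with A-485, or 1.84 ± 0.12 against 0.63 and -0.74. TFAP2C, a relative of TFAP2A, was not called within SKMEL5 at either time, at -0.02 ± 0.17 and 0.47 ± 0.17, while it stood at -1.81 and -1.35 in WM2664 and at -1.73 and -1.19 in A375. The difference of SKMEL5 from these lines was 1.75 ± 0.21 at 6 h and 1.75 ± 0.21 at 24 h. FOSL2 and SLC24A1, an AP-1 subunit and a sodium and calcium exchanger, were the others at 24 h, at 1.73 ± 0.25 and 1.60 ± 0.19.

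At 6 h the lower side was led by PIK3R3, a regulatory subunit of PI3 kinase, which read 788 and 834 with DMSO and 244 with A-485. It was at -1.73 in SKMEL5, -0.27 in WM2664 and 0.80 in A375, a difference of -2.001 ± 0.13. ARHGEF26, a guanine nucleotide exchange factor, was at -1.17 against 0.34 and 0.82, and MED9, HPS4 and EN2 followed at -1.67 ± 0.25, -1.53 ± 0.12 and -1.47 ± 0.24. A probe set annotated to the MIR34A locus was at -1.65 ± 0.38, and its call ended without either 6 h DMSO array, at -1.63 and -1.67. PFKFB4, FLRT3, AJUBA, LRATD2 and FOSL1 were above the other lines at 6 h, by 1.95 ± 0.19, 1.67 ± 0.14, 1.60 ± 0.19, 1.44 ± 0.06 and 1.40 ± 0.19. Of these 5, AJUBA and FOSL1 were called higher within SKMEL5 at 6 h (0.89 and 0.69), FLRT3 and LRATD2 were called lower (-0.53 and -1.29) and PFKFB4 was not called (0.29).

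Inhibitors of the cell cycle kinases moved at both times. CDKN1A, which encodes p21, read 831 and 872 with DMSO and 2096 with A-485 at 6 h, and 881 and 853 with DMSO and 2271 with A-485 at 24 h. It was higher by 1.30 ± 0.06 and 1.39 ± 0.06 (adjusted p 2.38e-05 and 5.62e-06), against 1.502 in WM2664 and -0.26 in A375 at 6 h. CDKN1B, which encodes p27, was higher by 0.49 ± 0.06 and 0.57 ± 0.06, and CDKN1C, which encodes p57, was lower, at -1.07 ± 0.15 and -1.57 ± 0.15. Of 24 tested p53 targets, CDKN1A among them, 3 were higher at 6 h, where 12.5% of all tested genes were, and 4 were higher and 7 lower at 24 h, beside 20.1% and 15.1% of all genes. The count of 7 was 4 without 24 h DMSO replicate 1 and 1 with the intensities as deposited. FAS, a death receptor, was higher at 6 h only, at 0.78 ± 0.13 against -0.14 ± 0.13, and TP53I3, an oxidoreductase, was higher at 24 h only, at 1.19 ± 0.11.

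Survival and death genes of the BCL2 family were called in both directions, with 3 higher and 3 lower of 16 at 6 h and 6 higher and 6 lower at 24 h. Of all genes, 12.5% were higher and 9.33% lower at 6 h, and 20.1% and 15.1% at 24 h. With the 6 SKMEL5 arrays alone, 2 of the family were higher and 1 lower at 6 h, and 2 higher and 3 lower at 24 h. MCL1, a guard against apoptosis, read 1548 and 1529.8 with DMSO and 3277 with A-485 at 6 h, and 1560.4 and 1653 with DMSO and 2582 with A-485 at 24 h, or 1.09 ± 0.07 and 0.69 ± 0.07. BCL2 itself was lower, from 143 and 167 with DMSO to 69.0 with A-485 at 6 h and from 175 and 164 to 47.4 at 24 h, or -1.16 ± 0.21 and -1.84 ± 0.21. BCL2A1, a family member that MITF activates, was at -0.76 ± 0.08 and -1.29 ± 0.08. PMAIP1, which encodes the death protein NOXA, read 449 and 432 with DMSO and 64.03 with A-485 at 24 h, a difference of -2.78 ± 0.13. At 6 h it was at 0.49 ± 0.13, a call that ended without any 1 of the DMSO arrays, at 0.47 to 0.52.

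Histone genes were mostly higher where called, and late. Of 15 tested, 1 was higher at 6 h, and 7 were higher and 3 lower at 24 h, with medians of 0.20 and 0.59. H2AC6 read 488 and 487 with DMSO and 685 with A-485 at 6 h, and 793 and 696 with DMSO and 3423 with A-485 at 24 h, or 0.49 ± 0.22 (adjusted p 0.181) and 2.20 ± 0.22 (adjusted p 0.000285). H2BC21 went from 0.45 ± 0.17 to 1.93 ± 0.17, and H2BC4 from 0.29 ± 0.33 to 2.76 ± 0.33, the latter from DMSO arrays near the floor, at 57.7 and 38.7. In the other direction H2AX, a variant that is phosphorylated at DNA breaks, was at 0.39 ± 0.09 and then -1.35 ± 0.09, and H2AZ1, a variant of active promoters, was lower at 24 h only, at -0.70 ± 0.06. The 6 h call of H2AX ended without DMSO 6 h replicate 2, at 0.32. Histone genes are near-identical copies, and probe sets may read more than 1 of them.

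The integrated stress response, through which ATF4 raises genes of amino acid supply, was lower with A-485 at 24 h. Of 30 tested genes, 25 were lower at 24 h and none was higher, with a median of -0.97, and at 6 h 4 were higher and 2 lower, with a median of 0.11. In DMSO 18 of the 30 rose from 6 h to 24 h, with a median of 0.63, while between the A-485 arrays the median moved by -0.32. The part of the rise in DMSO in the difference was not tested. The count of 25 was 13 without the 3 DMSO arrays of other lines and 15 with the intensities as deposited. ASNS, asparagine synthetase, read 2072 and 2003 with DMSO and 2798 with A-485 at 6 h, and 5349.9 and 4699 with DMSO and 2319 with A-485 at 24 h. The differences were 0.46 ± 0.35 (adjusted p 0.457) and -1.11 ± 0.35 (adjusted p 0.0424). That call ended without any 1 of the DMSO arrays, at -1.02 to -1.21, with the replicate number as a block, at -1.04 (adjusted p 0.0745), and without the 3 DMSO arrays of other lines, at -1.11 (adjusted p 0.185), and ASNS is named for its promoter, outside the rule for named genes. PSAT1, an enzyme of serine synthesis, read 2869.9 and 2822 with DMSO and 3208 with A-485 at 6 h, but 5458 and 5718 with DMSO and 1427 with A-485 at 24 h. Its difference was -1.97 ± 0.16 at 24 h, and DMSO alone moved it by 0.97 ± 0.13 between the times.

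SLC7A5, the leucine transporter, was lower at both times and without a rise in DMSO, from 2787 and 2887 with DMSO to 1104 at 6 h and from 3248 and 2472 to 368 at 24 h, or -1.36 ± 0.19 and -2.94 ± 0.19. TRIB3, a feedback inhibitor of ATF4, was higher at 6 h and lower at 24 h, at 0.95 ± 0.15 and -0.66 ± 0.15, while its DMSO level rose by 1.25 ± 0.12. CHAC1, which degrades glutathione, was at -0.28 ± 0.56 and -3.16 ± 0.56. Cytosolic tRNA synthetases, many of them ATF4 targets, gave 12 of 17 lower at 24 h and 1 higher at 6 h, with medians of -0.44 and 0.13. Their lower count was 6 without the 3 arrays and 2 as deposited, and 6 of the 17 rose in DMSO. AARS1, the alanine synthetase, read 1394 and 1306 with DMSO and 678 with A-485 at 24 h, against 744 and 761 and 719 at 6 h.

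The ASNS promoter is shown for the element at which ATF4 and its C/EBP partners bind. It is chr7:97872409-97872658 on the minus strand of GRCh38.p14, the 250 bases before the RefSeq start, with a match to TGATGNAA on the gene strand in capitals.
ASNS: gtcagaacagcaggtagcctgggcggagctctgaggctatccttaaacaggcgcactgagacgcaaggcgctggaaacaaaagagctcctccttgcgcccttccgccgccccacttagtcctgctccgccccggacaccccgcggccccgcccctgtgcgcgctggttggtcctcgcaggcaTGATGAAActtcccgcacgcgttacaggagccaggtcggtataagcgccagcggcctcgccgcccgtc
This element on either strand was found in 3 of 24 matched genes of the stress response (12.5%) and in 1.72% of matched tested genes.

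**Figure D4:**
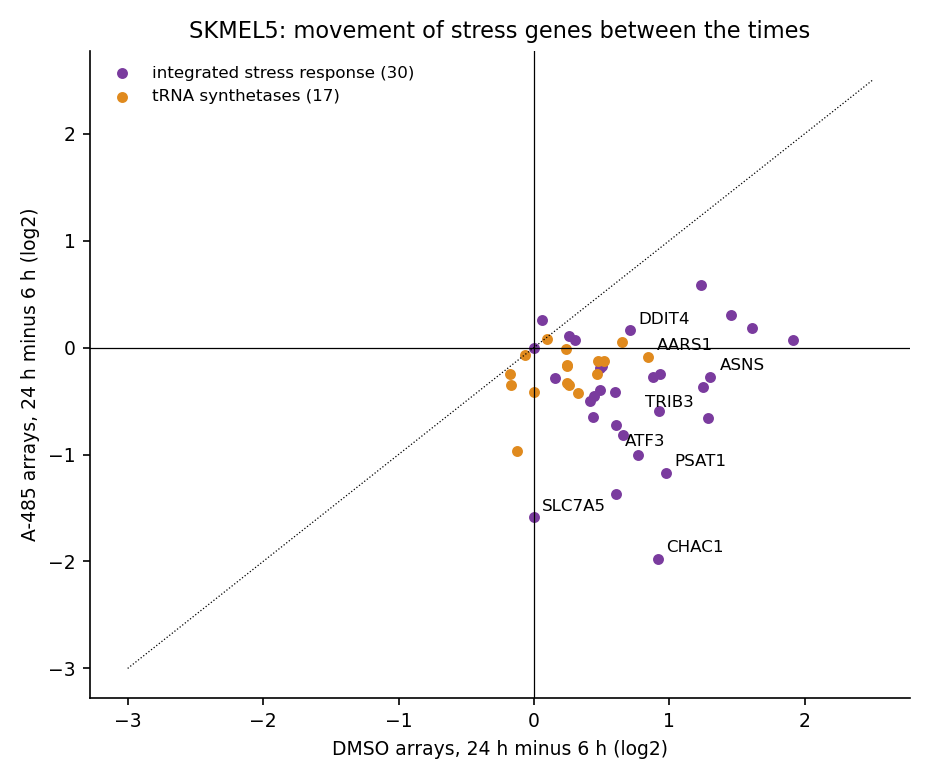
Movement of 30 integrated stress response genes and 17 tRNA synthetases from 6 h to 24 h (log2), between the DMSO arrays on the horizontal axis and between the A-485 arrays on the vertical axis, with a dotted line where both are equal. The stress genes moved by a median of 0.63 in DMSO and by a median of -0.32 with A-485.

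Among the targets of A-485, CREBBP read 486 and 512 with DMSO and 819 with A-485 at 6 h, and 462 and 427 with DMSO and 797 with A-485 at 24 h. The A-485 arrays lay above both DMSO arrays at both times, as for 41.2% and 41.1% of tested genes. The differences were 0.72 ± 0.15 and 0.84 ± 0.15, and a dim probe set gave -0.06 and 1.31. EP300 read 343 and 357 with DMSO and 508 with A-485 at 6 h, and 335 and 498 with DMSO and 615 with A-485 at 24 h, or 0.54 ± 0.19 (adjusted p 0.0917) and 0.59 ± 0.19 (adjusted p 0.0472), and the 24 h DMSO arrays stood far apart. The difference between the times was not called for either gene (0.13 ± 0.22 and 0.05 ± 0.27). Without 6 h DMSO replicate 1, CREBBP at 6 h was not called, at 0.68, and without either 6 h DMSO array EP300 at 24 h was not called, at 0.59. Of 33 acetyltransferases, deacetylases, acetyl readers and partners of p300, 6 were higher and 5 lower at 6 h, and 10 higher and 4 lower at 24 h, beside 12.5% and 9.33% of all genes at 6 h and 20.1% and 15.1% at 24 h. Without either DMSO array of 6 h the first pair became 2 and 3.

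CITED1, a p300 partner of the melanocyte lineage, was lower at both times, from 337 and 321 with DMSO to 81.9 with A-485 at 6 h, and from 291 and 201 to the floor at 24 h, a difference of -2.01 ± 0.18 and then of -2.92 or lower. BRD2, a reader of acetylated histones, was higher by 0.68 ± 0.16 and 0.93 ± 0.16, and its 6 h call ended without DMSO 6 h replicate 2, at 0.50. Factors of transcription elongation and the Mediator were higher or not called, with 6 of 21 higher at 6 h and 9 at 24 h, beside 12.5% and 20.1% of all genes, and none lower. These counts were 1 and 0 with the intensities as deposited and 2 and 5 with the 6 SKMEL5 arrays alone. CDK7, the kinase of general factor TFIIH, was higher at 6 h only, at 0.81 ± 0.06 against 0.17 ± 0.06, and HEXIM2, an inhibitor of the elongation factor P-TEFb, at 24 h only, at 0.79 ± 0.07.

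Signalling genes outside the lineage were mostly lower where called at 6 h. Of 22 tested feedback and target genes of TGF-beta and BMP, 9 were lower and 1 higher at 6 h, and 8 lower and 6 higher at 24 h. That last count was 2 without 24 h DMSO replicate 1. ID4, an inhibitor of basic helix-loop-helix factors, read 629 and 659 with DMSO and 127 with A-485 at 6 h and 539 and 550.4 with DMSO and 117 with A-485 at 24 h, while its relative ID1 was higher, at 0.84 ± 0.15 and 1.39 ± 0.15. SMAD7, the feedback inhibitor of TGF-beta, was at -1.65 ± 0.17 and -0.87 ± 0.17. Of 19 Notch genes, 8 were lower at each time, and none and 3 were higher. JAG1, a Notch ligand, went from -1.97 ± 0.16 to -0.99 ± 0.16, and the targets HEY1 and HES6 stood at -1.88 ± 0.08 and -1.71 ± 0.08 and at -1.15 ± 0.08 and -2.18 ± 0.08. The narrowing of JAG1 between the times lost its call without any 1 of the DMSO arrays, at 0.95 to 1.01.

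Of 25 genes of insulin and PI3 kinase signalling, 8 were lower at each time, and 2 and 4 were higher, the last count being 2 without 24 h DMSO replicate 2. IRS1, an insulin receptor substrate, was at the floor with A-485 at 6 h, a difference of -1.48 or lower, and PIK3R3 was at -1.73 ± 0.11 and -0.94 ± 0.11. Among 14 clock genes, BMAL1, the activator of the clock, was higher at 6 h only (0.95 ± 0.11 against -0.07 ± 0.11) and NR1D2, a repressor of BMAL1, was lower at 6 h only. NR1D2 read 416 and 422 with DMSO and 156 with A-485 at 6 h, and at 24 h its A-485 array, at 463, lay between the DMSO arrays, at 495 and 270.0. Its change between the times lost its call without either 6 h DMSO array, at 1.77 and 1.75. In all, 1 clock gene was higher and 4 lower at 6 h, and none higher and 2 lower at 24 h. Of all genes, 12.5% were higher and 9.33% lower at 6 h, and 20.1% and 15.1% at 24 h. Only the 4 of 14 clock genes lower at 6 h stood above these shares. Of the insulin and PI3 kinase genes, the shares higher at each time were likewise below those of all genes, and the shares lower were above.

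Genes of the extracellular matrix and adhesion were mostly lower where they were called. Of 38 tested, 15 were lower and 2 higher at 6 h, and 13 lower and 6 higher at 24 h, and the 24 h count of higher genes was 10 without either 6 h DMSO array. With the intensities as deposited, 1 was lower at 6 h and 7 at 24 h, and with the 6 SKMEL5 arrays alone 6 were lower at 6 h. HAS2, which makes hyaluronan, read 1111 and 1246 with DMSO and 123 with A-485 at 6 h, and 1094 and 1237 with DMSO and 43.3 with A-485 at 24 h, close to the floor. Its difference was -3.26 ± 0.17 and -4.75 ± 0.17, the deepest of the matrix genes at each time, and a dimmer probe set gave -2.74 and -2.98. CDH1, which encodes E-cadherin, was at -1.07 ± 0.11 and -1.76 ± 0.11, and COL6A1, a collagen of the pericellular matrix, was higher, by 0.99 ± 0.24 and 0.93 ± 0.24. The other 7 probe sets of COL6A1 were at the floor. Its calls ended without replicate 1 of the DMSO arrays of each time, at 0.77 and 0.82.

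Interferon-stimulated genes rose in part. Of 42 tested, 8 were higher and 4 lower at 6 h, beside a background of 12.5% and 9.33%, and 13 were higher and 2 lower at 24 h, against 20.1% and 15.1%. Without 6 h DMSO replicate 1 the higher count at 6 h was 5, and the lower count at 6 h was 2 without any 1 of the 4 DMSO arrays. CMPK2, a nucleotide kinase of the antiviral response, read 68.8 and 66.3 with DMSO and 164 with A-485 at 6 h and 72.5 and 55.5 with DMSO and 156 with A-485 at 24 h, dim values that were 1.28 ± 0.16 and 1.30 ± 0.16 apart. IFIT1, which binds viral RNA, was higher by 1.22 ± 0.13 and 0.98 ± 0.13. PLSCR1 was lower, at -0.69 ± 0.07 and -0.64 ± 0.07.

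Metallothionein and zinc transporter genes were called in both directions at 24 h. Of 12 metallothioneins and zinc transporters, 6 were higher and 3 lower at 24 h, and 1 was higher and 2 lower at 6 h. The count of 6 was 3 with the intensities as deposited and 1 with the 6 SKMEL5 arrays alone. It was also 1 without probe sets ending in _x_at or _s_at. MT1F, a metallothionein, was higher at 24 h only, at 1.40 ± 0.12, but another probe set of it, of the same brightness, gave 0.08, and metallothionein genes are close copies that a probe set may not tell apart. Of 34 subunits of oxidative phosphorylation, 12 were higher and 1 lower at 24 h, the largest being NDUFB5 of complex I at 0.59 ± 0.08. The count of 12 was 4 with arrays scaled to a common 75th percentile, 0 with the intensities as deposited and 9 with the 6 SKMEL5 arrays alone. Of 23 autophagy genes, 10 were higher and none lower at 24 h, beside 20.1% of all genes higher, and the count of 10 was 1 with the intensities as deposited, 2 with the 6 SKMEL5 arrays alone and 3 without probe sets ending in _x_at or _s_at. Among them were ATG2A, a lipid transfer protein, at 1.24 ± 0.18 and NBR1, a cargo receptor, at 1.24 ± 0.11. Of 14 housekeeping genes, none was called at 6 h by limma (none at an unadjusted p under 0.05 either), and at 24 h 1 was higher and 3 lower, among them TUBB, a tubulin, at -1.29 ± 0.06.

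**Figure D5:**
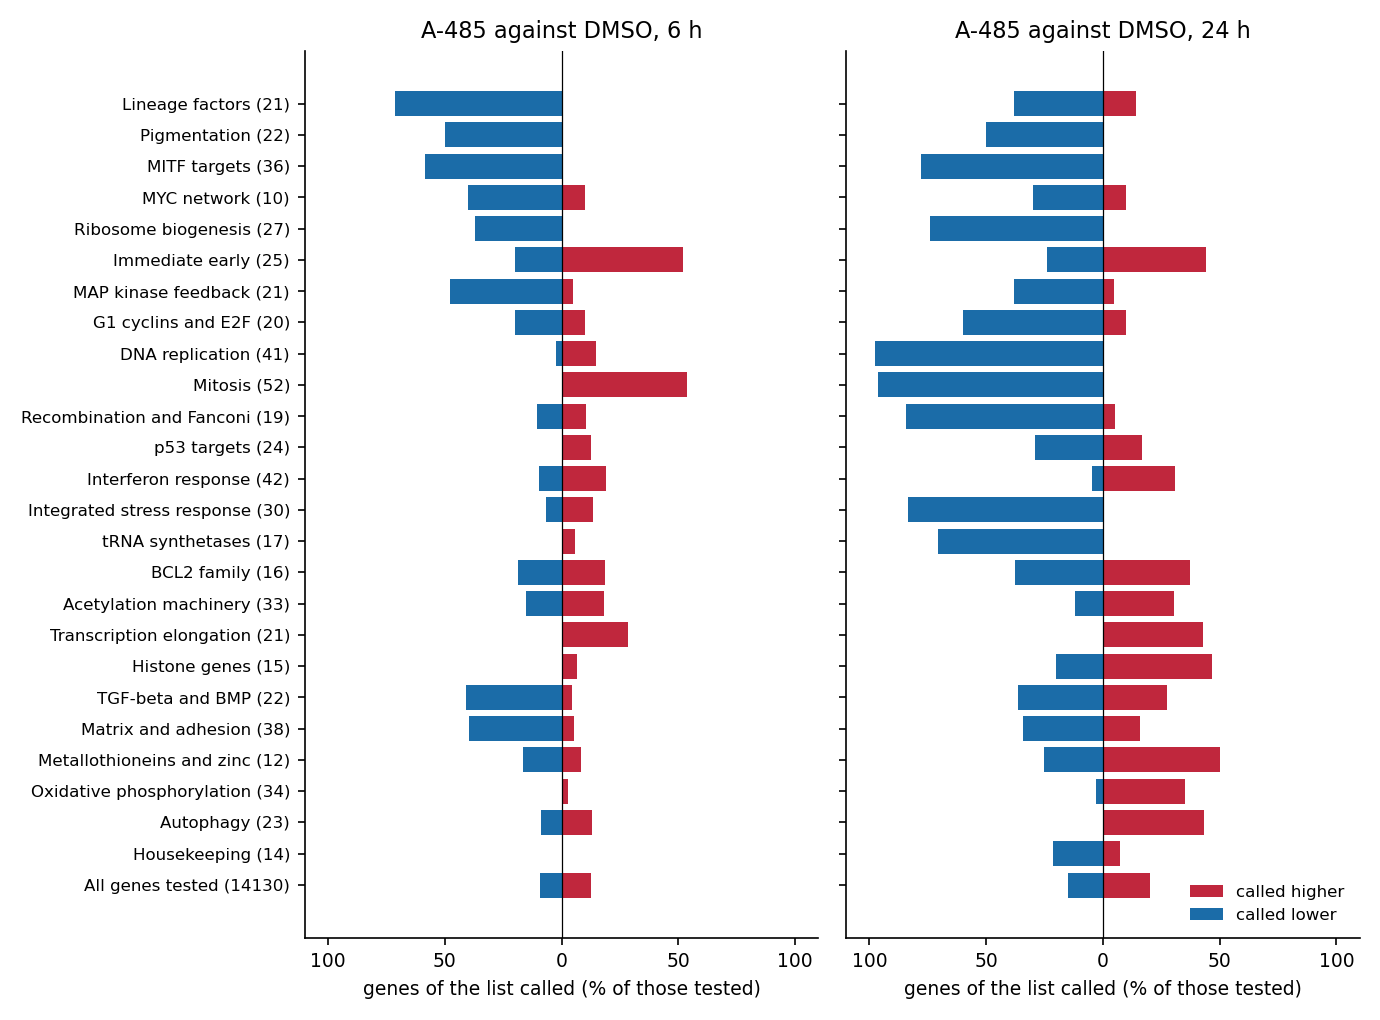
Share of the tested genes of each list that was called higher (red, to the right) or lower (blue, to the left) with A-485 at 6 h and at 24 h, with the number tested in brackets and all tested genes in the last row. At 24 h, 40 of 41 replication genes and 50 of 52 mitosis genes were lower, and at 6 h 15 of 21 lineage factors were lower.

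The remaining genes named by size show the course of single genes. At 6 h only, MED30, a Mediator subunit, rose from 405 and 417 with DMSO to 904 with A-485, and was at 389 and 421 and 429 at 24 h, or 1.14 ± 0.06 and then 0.09 ± 0.06. CWF19L2, a splicing factor, was at 0.99 ± 0.11 and 0.20 ± 0.11. SGMS2, CENPE, ZNF711, IMMP1L and CEP120 were also called higher at 6 h only, at 1.35, 1.14, 1.13, 0.96 and 0.93. At 24 h they stood at 0.09, -0.79, 0.06, 0.32 and 0.21. The 24 h A-485 array of CENPE, at 125, lay below both DMSO arrays, at 236 and 199, and those of IMMP1L and CEP120 lay above both. For each of these 5 genes the call of the difference between the times ended without 1 or more of the DMSO arrays. For SGMS2 the difference was -1.08 without 24 h replicate 2. CENPE stood at -1.64 without 6 h replicate 2 and at -1.81 and -2.05 without 24 h replicates 1 and 2, and its 6 h call ended as well, at 0.85 without the first and at 1.14 without either of the others. ZNF711 stood at -1.02 and -1.12 without 6 h replicates 1 and 2, and at -0.93 without 24 h replicate 2. IMMP1L was at -0.56 without 6 h replicate 2, and at -0.65 and -0.62 without 24 h replicates 1 and 2. CEP120 was at -0.67 and -0.77 without 6 h replicates 1 and 2, and at -0.60 without 24 h replicate 2. PCDH7, a protocadherin, fell from 277 and 284 with DMSO to 67.6 with A-485 at 6 h and was at 233 and 185 and 174 at 24 h. HMGA2, a chromatin protein of embryonic cells, went from -1.63 ± 0.11 to -0.12 ± 0.11, and TBX2 from -2.30 ± 0.23 to -0.32 ± 0.23, although dimmer probe sets of TBX2 stood at -0.93 and -1.22 at 24 h. DUBR, a long noncoding RNA, went from -1.51 ± 0.18 to 0.34 ± 0.18. TENT5A went from -1.99 to -0.54 and SHC4 from -1.61 to -0.14, but their change between the times lost its call without any 1 of the DMSO arrays, with lowest values of 1.39 for TENT5A and 1.40 for SHC4, both without 24 h replicate 2.

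PDE3A, a phosphodiesterase that breaks down cyclic AMP and GMP, was lower at 6 h and higher at 24 h. It read 459 and 438 with DMSO and 173 with A-485 at 6 h, and 457 and 378 with DMSO and 701 with A-485 at 24 h, or -1.38 ± 0.10 and 0.75 ± 0.10 in SKMEL5, against 0.00 and 0.00 in WM2664 and 0.00 and 0.00 in A375. PDE3A was at the floor on every array of those lines, so that no response could be read there. CTNNBIP1, an inhibitor of beta-catenin, went from -1.04 ± 0.17 to 0.80 ± 0.17, the homeobox gene DLX1 from -0.83 ± 0.12 to 0.78 ± 0.12, and GASK1B from -0.79 ± 0.08 to 0.54 ± 0.08. IL6, an inflammatory cytokine, was at -0.64 ± 0.14 and 0.61 ± 0.14, and its 6 h call ended, at -0.64, without either 6 h DMSO array. At 24 h only, SLC50A1, a sugar transporter, rose from 377 and 395 with DMSO to 1083 with A-485, against 378 and 376 and 334 at 6 h, or 1.49 ± 0.20. P2RX7, an ATP-gated channel, and LZTS1 were lower at both times, at -2.55 ± 0.04 and -2.02 ± 0.04 and at -2.02 ± 0.08 and -2.25 ± 0.08. Among long noncoding RNAs, SLCO4A1-AS1 was lower at both times, at -2.38 ± 0.13 and -2.10 ± 0.13, and LHFPL3-AS1 went from 4386 and 4438 with DMSO to 949 with A-485 at 6 h and from 4329 and 4195 to 553 at 24 h.

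ENPP4, an ectoenzyme, was higher at both times, from 80.8 and 76.3 with DMSO to 222 with A-485 at 6 h and from 94.3 and 96.0 to 324 at 24 h. KRABD5 and SAMD9 were higher by 1.43 and 1.38 at 6 h and by 1.42 and 1.95 at 24 h. The 6 h call of SAMD9 ended without 6 h DMSO replicate 2, at 1.06, and without either 24 h array, at 1.38. The calls of KRABD5 ended without 6 h replicate 1 or 2, at 1.27 and 1.58, and without 24 h replicate 2, at 0.98. CCDC92, TFPI, DLX2, C1orf53 and H4C8 were called higher at 24 h only, at 2.07, 1.75, 1.62, 1.57 and 1.38. At 6 h they stood at 0.59, 0.27, -0.27, 0.44 and 0.20. Each lost the call of its change between the times without 6 h DMSO replicate 1, at 1.48, 1.41, 1.88, 1.04 and 1.12. Without 6 h replicate 2 the same held for CCDC92, DLX2, C1orf53 and H4C8, without 24 h replicate 1 for H4C8 and without 24 h replicate 2 for CCDC92 and DLX2. MNS1, DEPDC1, MYBL1 and TUBE1 were higher at 6 h and lower at 24 h, with DEPDC1 at 0.99 ± 0.14 and -2.21 ± 0.14. SHCBP1, CENPK, TPX2 and FAM83D were lower at 24 h only, at -2.57, -2.52, -2.36 and -2.31. FAM171A1 and ACOT12 were lower at 6 h and higher at 24 h, at -0.60 and 0.55 and at -0.52 and 0.60, and the calls of FAM171A1 ended without 6 h DMSO replicate 1 or 2, at -0.57 and -0.63, and without 24 h replicate 2, at 0.42.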

How the data were processed

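Total RNA of 18 samples was hybridised to Affymetrix HG-U133 Plus 2.0 arrays, per the labels' protocols. The authors deposited linear array intensities, 1 value per probe set, and how the scanner files were summarised, corrected and scaled is not given in the sources. The share of values below 0 shows that a background had been subtracted, and array medians differed. Here all 18 arrays were quantile normalized on the linear scale, values under 32 were set to 32, and log2 was taken. Of 54613 probe sets, 41091 had 1 gene symbol, 1801 several and 11721 none. The probe set with the highest mean was used for each of 19775 genes, and 14130 passed a minimum mean log2 at the 40th percentile of all probe sets.

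A model with 12 line, treatment and time groups was fitted with limma 3.58.1 in R 4.3.3 (6 residual degrees of freedom) and p-values were adjusted by Benjamini-Hochberg over all tested genes. The comparison with other lines subtracted the mean of their A-485 responses. The code was tested on simulated data. Gene names came from the platform annotation, and promoter sequences from RefSeq on GRCh38.p14, of which 11373 tested genes had 1. Members and gene lists were chosen with earlier results of these data known. Named genes were MITF, SOX10, MYC, EGR1, EP300 and CREBBP, the 8 with the largest difference in each time group that passed conditions on brightness and probe sets, up to 4 per direction and time of each described list, of which the text gives a part, and 6 per direction and time against the other lines. Genes at the floor in 1 group have only a bound. Alternatives were other floors, scalings, filters, probe set rules and sample sets, and leaving out each DMSO array.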

Additional observations from a re-analysis of the deposited data

Results flagged for a closer look

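The response of SKMEL5 to A-485 differed between the times, by limma's test of the 24 h minus the 6 h difference, for 1955 genes. Of the genes named by their time group, the response was lower at 24 h than at 6 h by this test, on the log2 scale, for UBE2C (-3.64), TOP2A (-3.61), DEPDC1 (-3.20), UHRF1 (-3.12), RAD51AP1 (-3.06), KIF18A (-3.04), TTK (-2.93) and SHCBP1 (-2.83). It was also lower for FEN1 (-2.74), CENPK (-2.62), TPX2 (-2.61), BUB1B (-2.52), FAM83D (-2.26), MNS1 (-2.17), TUBE1 (-2.06) and CENPE (-1.93). The same held for GALNT3 (-1.83), MYBL1 (-1.78), SGMS2 (-1.26), ZNF711 (-1.07), MED30 (-1.05), BMAL1 (-1.02), CWF19L2 (-0.80) and CEP120 (-0.72). IMMP1L had -0.63. It was higher at 24 h than at 6 h for PDE3A (2.13), TBX2 (1.98), DLX2 (1.89), DUBR (1.85), CTNNBIP1 (1.84), PCDH7 (1.80), H2AC6 (1.71) and SOX10 (1.70). Next in size were SPRY1 (1.69), CDH19 (1.69), SLC50A1 (1.66), DLX1 (1.62), HMGA2 (1.51), TFPI (1.48), H2BC21 (1.48) and CCDC92 (1.47). These were followed by SHC4 (1.46), TENT5A (1.45), GASK1B (1.33), IL6 (1.25), H4C8 (1.18), FAM171A1 (1.15), C1orf53 (1.12) and ACOT12 (1.12). Smaller positive values were found for MYC (1.04) and P2RX7 (0.53), and for MITF (0.84), which was named apart from the time groups. Genes named only from the gene lists or against the other lines are not included.

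The response of SKMEL5 differed from the mean response of WM2664 and A375 for 984 genes at 6 h and 2720 at 24 h. At 6 h the named genes above the other lines, on the log2 scale, were PFKFB4 (1.95), TFAP2C (1.75), FLRT3 (1.67), AJUBA (1.60), LRATD2 (1.44) and FOSL1 (1.40). Those below were PIK3R3 (-2.001), ARHGEF26 (-1.75), MED9 (-1.67), MIR34A (-1.65), HPS4 (-1.53) and EN2 (-1.47), MIR34A being a probe set annotated to that locus. At 24 h the named genes above the other lines were ADGRG1 (2.69), ARRDC3 (1.89), GPAT3 (1.76), TFAP2C (1.75), FOSL2 (1.73) and SLC24A1 (1.60). Those below were RRM2 (-3.28), CCNE2 (-3.13), CDK1 (-2.89), RAD51AP1 (-2.71), NCAPG (-2.64) and UHRF1 (-2.62).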

How the results depend on the processing

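Counts of called genes were lower without scaling, whereas scaling to a common 75th percentile gave 2851 at 6 h and 4675 at 24 h. With the intensities as deposited (floor of 32, then floor of 1), 834 and 114 genes were called at 6 h against 3085, 1228 and 657 at 24 h against 4981, and 474 and 299 for the difference between the times against 1955. Likewise 13 and 24 were called between the DMSO times against 1186, 161 and 9 against the other lines at 6 h against 984, and 571 and 226 at 24 h against 2720. By time group these settings gave 272 and 48 at both times against 1910, 83 and 23 at 6 h only against 320, 335 and 254 at 24 h only against 1047, and 24 and 5 in opposite directions against 212. Among calls as deposited, 12.7% of the differences between the times were positive against 47.6%.

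With the 6 SKMEL5 arrays alone, limma called 1342 genes at 6 h, 3087 at 24 h, 964 for the difference, 912 at both times, 130 at 6 h only, 542 at 24 h only and 89 in opposite directions, and between the DMSO times 0 (2771 at an unadjusted p under 0.05). A floor of 16 gave 1294 for the difference, 575 between the DMSO times, 440 and 1811 against the other lines and 208 at 6 h only. Without the 3 DMSO arrays of other lines that carry another line's transcripts, 424 differed between the DMSO times and 201 were at 6 h only. With at least 2 SKMEL5 arrays above the floor, 605 were called against the other lines at 6 h. With a 2-fold minimum, counts were 511 at 6 h, 1104 at 24 h, 615 for the difference, 42 between the DMSO times, and 248 and 753 against the other lines.

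Leaving out each SKMEL5 DMSO array gave 2413 to 3300 genes at 6 h, 4406 to 4933 at 24 h, 1687 to 2425 for the difference, 567 to 1615 between the DMSO times, 780 to 1156 and 2526 to 3034 against the other lines, 1540 to 1932 at both times, 289 to 385 at 6 h only, 927 to 1273 at 24 h only and 167 to 263 in opposite directions. Of 587 called results of named genes, 96 lost the call without at least 1 such array, none reversed, and 143 kept it in every setting. Differences of replicate 1 from replicate 2 correlated between -0.036 and 0.060 across DMSO groups. This cannot show whether an A-485 array was paired with 1 DMSO array of its group, since it holds no A-485 array. With the replicate block 2787, 4630 and 1740 genes were called at 6 h, at 24 h and for the difference. Reversed values as deposited were BRCA1 at 6 h (0.0856), SLC39A10 at 6 h (0.0630), and the differences between the times of NDUFS1 (-0.00126) and SDHC (-0.00541). DUSP4 at 24 h was 0.0668 without probe sets ending in _x_at or _s_at, and NOTCH2 at 24 h was -0.0473 with the mean of all probe sets. The cause of these shifts was not tested. Precision is limited by 1 A-485 array at each time and by dim genes near the floor.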
